A study of Mus musculus with 22 samples.

Results

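Oxidative phosphorylation genes were taken as the nuclear genes whose symbols begin with Nduf, Sdha to Sdhd, Uqcr, Atp5 or Cox4 to Cox8 with a subunit code, with pseudogenes left out. The rule found 89 of the 24130 genes in the deposited tables. They are 7 core subunits, 29 accessory subunits and 7 assembly factors of complex I, 6 genes of complex II, 8 of complex III, 15 of complex IV and 16 of complex V. Ndufa4 was placed with complex IV, and Ndufa4l2, its paralog, was kept apart. Complex V follows the symbol alone and holds every Atp5 gene, Atp5sl included, whatever its function. A further 9 genes carry a matching symbol only in the reference annotation and are not counted among the 89.

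The respiratory chain lies in the inner mitochondrial membrane. Complex I takes electrons from NADH and complex II takes them from succinate. Complex III passes them to cytochrome c, complex IV hands them to oxygen, and complex V (ATP synthase) uses the resulting proton gradient to make ATP. Fibroblasts and pluripotent stem cells are known to differ in how far they rely on this pathway and on glycolysis, and a switch between the pathways has been described during reprogramming. A few subunits exist as tissue isoforms: Cox7a1 and Cox6a2 are best known from muscle, and Cox6b2 and Cox7b2 from testis.

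RNA was sequenced from mouse embryonic fibroblasts at passage P2 that carried the OG2 transgene, a GFP reporter of the Oct4 gene, on a mixed 129SVJ, C57B6 and CBA background. The cells were transfected for 2 days and then sampled by day. OvSvK cells received Klf4 with Oct4 and Sox2 that were each fused to VP16, a viral activation domain, and were sampled on days 0, 1, 2, 3 and 4. OSK cells received unfused Oct4, Sox2 and Klf4. They were grown without bFGF (a growth factor), without vitamin C or without GSK3 inhibitors (CHIR-99021 and LiCl) and sampled on days 3 and 7, or in the complete medium and sampled on days 0, 1, 3, 5 and 7. GFP cells, the control, were sampled on days 1, 3, 5 and 7. The mESC sample (OG2 embryonic stem cells at passage P5) and the MEF sample (fibroblasts at passage P2) were read from columns of a normalized table. Each arm and day is 1 library (n = 1), so the standard errors below describe how a difference varied from day to day, or how values departed from a line over days, and not a spread between replicates. In bulk RNA, fewer cells of a type and less RNA per cell cannot be told apart.

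Library totals ran from 7872277 to 20720718 expected counts. The summed level of 8 fibroblast markers was 3240 to 18200 CPM in OvSvK, 3750 to 17700 CPM in the omissions, 2580 to 30600 CPM in OSK and 14600 to 26600 CPM in GFP. CPM are counts scaled to library size and composition (TMM). OSK day 0 stood apart: its TMM factor was 0.665, against 0.854 to 1.17 in the other 19 libraries, and GC-poor and GC-rich genes deviated there by -1.67 and 1.15 on the log2 scale. The libraries also form 2 sets by the share of counts at the Rpsa locus that went to the pseudogene Rpsa-ps10. It was 0.124% to 0.476% in the 12 libraries of OvSvK, the omissions and OSK day 0, and 3.32% to 7.78% in the 8 libraries of OSK days 1 to 7 and GFP. OSK against GFP lies within the set of 8. The later OSK days and the OvSvK or omission libraries set against them come from different sets, and the set cannot be told apart from the arm in those comparisons.

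Promoter letters were counted as a feature that the gene names did not fix. RefSeq promoters of the GRCm38.p6 build, from 250 bases before to 50 bases after the start, were found for 74 of the 89 genes. The letters GCGCNTGCG on either strand, a match to the NRF1 motif, stood in a promoter of 25 of the 74 (33.8%), against 1924 of 27025 genes (7.12%) and 1693 of 17492 protein-coding genes (9.68%). NRF1 is a transcription factor known for binding promoters of respiratory chain genes. Matches were held by 0 of 5 core subunits, 9 of 27 accessory subunits and 2 of 6 assembly factors of complex I, and by 2 of 5 genes of complex II, 3 of 5 of complex III, 1 of 13 of complex IV and 8 of 13 of complex V. Most members thus had no match. The letters TCAAGGTCA (ERR, an estrogen-related receptor motif) occurred in 2 of the 74 (2.7%), against 0.466% of all genes. CCGGAAGT (an ETS motif) occurred in 5 (6.76%), against 4.31%. A match is a stretch of letters and not a site shown to be bound.

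The promoters below belong to genes that the results turn on. Capitals mark the matches to the 3 motifs, and overlapping matches on both strands form 1 run of capitals. Ndufaf4 (chr4:24897833-24898132, plus strand) has such a run, Cox6a1 (chr5:115348909-115349208, minus strand) has an overlapping and a separate NRF1 match, and Atp5g3 (chr2:73911277-73911576, minus strand) has an ERR match followed by an NRF1 match. Cox6b2 (chr7:4753045-4753344, minus strand) has none of the 3 in this window.
Ndufaf4: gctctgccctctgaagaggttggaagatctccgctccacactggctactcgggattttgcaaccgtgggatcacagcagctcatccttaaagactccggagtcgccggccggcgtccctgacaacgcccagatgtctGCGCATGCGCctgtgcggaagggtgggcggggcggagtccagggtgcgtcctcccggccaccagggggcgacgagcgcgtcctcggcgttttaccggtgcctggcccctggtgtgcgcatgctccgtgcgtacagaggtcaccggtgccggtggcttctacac
Cox6a1: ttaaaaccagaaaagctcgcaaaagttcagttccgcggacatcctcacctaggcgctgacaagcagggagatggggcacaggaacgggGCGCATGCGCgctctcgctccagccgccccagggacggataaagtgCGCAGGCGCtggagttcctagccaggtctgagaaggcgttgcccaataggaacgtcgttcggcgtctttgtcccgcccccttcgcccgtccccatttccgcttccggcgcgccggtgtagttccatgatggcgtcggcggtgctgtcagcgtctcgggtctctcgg
Atp5g3: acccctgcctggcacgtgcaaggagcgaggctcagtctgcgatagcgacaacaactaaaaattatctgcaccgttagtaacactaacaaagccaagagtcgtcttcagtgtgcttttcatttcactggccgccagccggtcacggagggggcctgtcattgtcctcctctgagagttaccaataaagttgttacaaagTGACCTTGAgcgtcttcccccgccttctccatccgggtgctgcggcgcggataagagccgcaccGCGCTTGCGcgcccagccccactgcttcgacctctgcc
Cox6b2: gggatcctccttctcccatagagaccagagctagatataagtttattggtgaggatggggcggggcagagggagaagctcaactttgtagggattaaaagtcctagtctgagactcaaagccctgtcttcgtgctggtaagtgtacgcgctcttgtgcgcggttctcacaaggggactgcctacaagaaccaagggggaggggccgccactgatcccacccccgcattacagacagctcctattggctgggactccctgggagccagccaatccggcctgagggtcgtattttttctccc

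Genes with and without an NRF1 match had nearly the same median changes. In OSK against GFP the median log2 fold change of the 25 with a match was -0.16, and that of the 48 tested without a match was -0.15. Without GSK3 inhibitors the medians were 0.03 with a match and -0.06 without. No test was made of these differences.

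Most of the 89 genes were well expressed, and without OSK day 0 they varied less between libraries than all genes of at least 5 CPM did. A median of at least 5 CPM over the 20 libraries was reached by 85. Together the members held 0.745% (OvSvK day 3) to 1.29% (OSK day 0) of all counts, and complex V held more than any other of the groups above in every library, 0.308% to 0.573%. Per transcript length, Atp5b (the catalytic beta subunit of ATP synthase) was highest with a median of 1500 TPM, followed by Atp5g3 (a gene of the membrane c-ring) with 809 TPM and Cox4i1 (the common isoform of complex IV subunit 4) with 797 TPM. Without OSK day 0 the median ratio of the highest to the lowest library was 2.23 over the 85 members. It was 3.66 over all 10782 genes with a median of at least 5 CPM. Less than a 2-fold range was seen in 29.4% of the members and in 7.85% of all such genes. Beyond that cutoff the genes were not matched to the members for level. With OSK day 0 the median ratio was 3.53, and 68 of the 85 members were highest in that library.

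**Figure D1:**
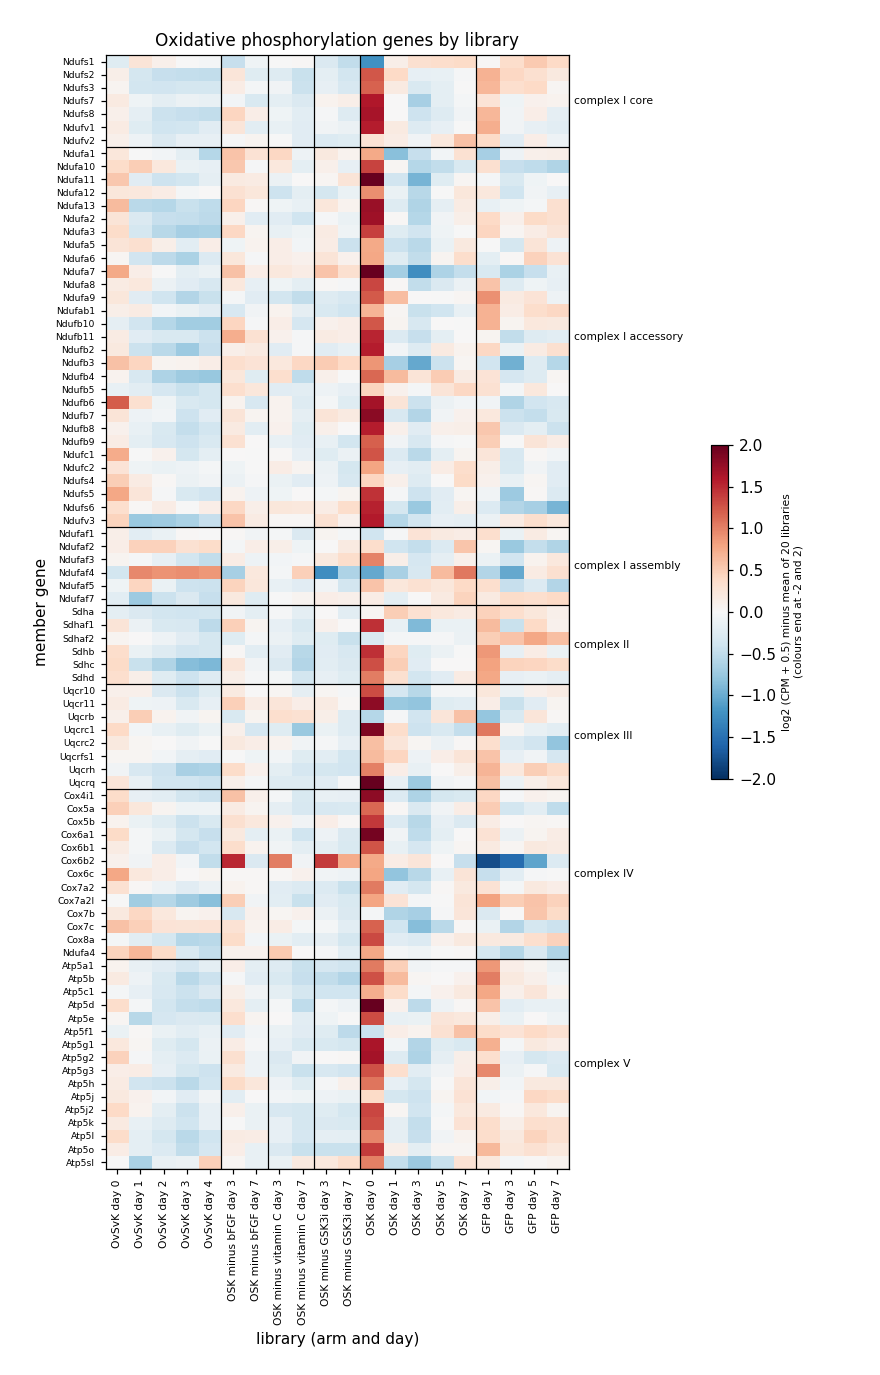
Heat map of the 85 members with a median of at least 5 CPM (rows, by complex) in 20 libraries (columns, by arm and day), coloured by log2(CPM + 0.5) minus the member's mean. OSK day 0 is the red column, and Ndufaf4 and Cox6b2 differ most between the other libraries.

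A few members varied widely. Leaving out OSK day 0, the widest of the 85 were Cox6b2 (chr7:4751792-4753094, mm10), which ranged 10.5-fold, Ndufaf4 (an assembly factor of complex I, chr4:24898083-24905001), which ranged 5.2-fold, and Ndufa7 (an accessory subunit, chr17:33824572-33838317), which ranged 4.12-fold. Cox7a1, below that level, ranged 9.93-fold between 0.448 and 4.45 CPM. At the other end, Ndufaf1 and Ndufc2 ranged 1.57-fold and 1.62-fold.

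Most members were raised in OSK day 0, and among them the rise was larger at higher GC content. The 28 members of lowest GC content (40.2% to 48.5%) stood there at a median of 0.74 on the log2 scale above their means over the other 19 libraries. The 29 of middle content stood 1.23 above and the 28 of highest content (52.9% to 60.9%) 1.62 above. Ndufs1, which carries iron-sulphur clusters in the electron path of complex I, and Ndufaf4 had GC contents of 44.4% and 40.2% and were lower in that library, at 48.7 and 7.7 CPM. The summed macrophage markers were also highest there, at 162 CPM, against 5.9 to 70.2 CPM elsewhere. Their part in the members' levels was not tested.

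**Figure D2:**
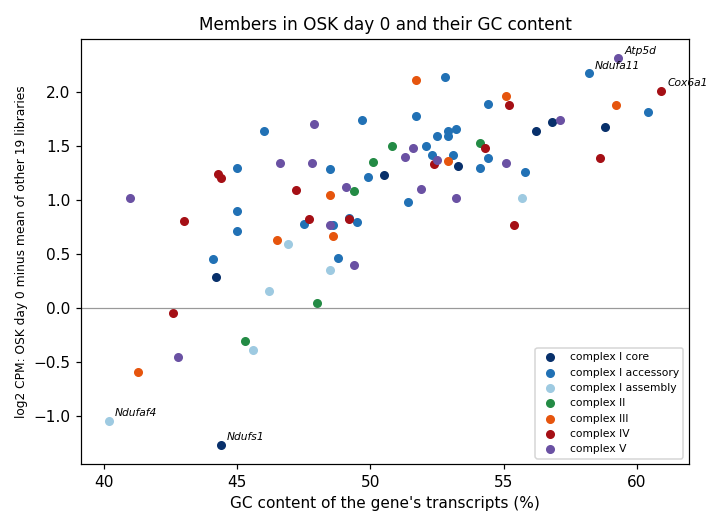
Scatter plot of the members' transcript GC content (x axis, percent) against their log2 CPM in OSK day 0 minus the mean of the other 19 libraries (y axis), 1 point per gene and coloured by complex. GC-rich members such as Atp5d and Cox6a1 are among the highest, and 7 members of low GC content, Ndufs1 and Ndufaf4 lowest, lie below 0.

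OSK against GFP on days 1, 3, 5 and 7 gave few differences among the members. By edgeR's quasi-likelihood test with Benjamini-Hochberg adjustment over 12680 genes, 0 of 87 tested members were higher and 3 were lower. Over all genes 16.8% were called higher and 14% lower. At an unadjusted p under 0.05, 3 members were higher and 16 lower, and DESeq2 called 1 higher and 9 lower. The median log2 fold change was -0.15 over the members and 0.05 over all genes, and 60 of 87 members had a negative value. Fibroblast markers moved with the arms: their sum was 17500, 9210, 4450 and 2580 CPM in OSK, against 14600, 26600, 21100 and 26300 CPM in GFP. The pluripotency markers summed to 347 CPM on day 7 of OSK and to 0.792 CPM on day 7 of GFP. The part of either in the members' values was not tested.

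Sdhaf2 (chr19:10500534-10526142, mm10), the assembly factor that helps attach FAD to the catalytic subunit of complex II, was at 42.3, 42.6, 42.6 and 39.9 CPM in OSK on days 1, 3, 5 and 7, against 60.8, 64.8, 74.5 and 65.7 CPM in GFP. The arms do not overlap, and the OSK values hardly move. It was lower in OSK by edgeR's test (log2 fold change -0.65, SE 0.14, adjusted p = 0.0207). Ndufab1, the mitochondrial acyl carrier protein and an accessory subunit of complex I, was at 66.8, 47.5, 48.8 and 58.1 CPM in OSK, against 105, 72, 83 and 86.4 CPM in GFP. OSK was again below GFP on each day (edgeR log2 fold change -0.63, SE 0.13, adjusted p = 0.0202). Atp5g1, one of 3 genes for subunit c of ATP synthase, was at 77.7, 53.6, 68 and 65.2 CPM in OSK and 132, 78.1, 92.2 and 88 CPM in GFP (edgeR log2 fold change -0.53, SE 0.14, adjusted p = 0.0392). OSK was below GFP on each day, and its highest value (77.7 CPM, day 1) was only just under the lowest GFP value (78.1 CPM, day 3). The 3 fold changes lay between -0.74 and -0.49 whichever day was left out, while the calls changed. Without day 1, 6 members were lower and 2 higher, and without day 7, 5 were lower and 1 higher. Without day 3 the log2 fold changes of Sdhaf2, Ndufab1 and Atp5g1 were -0.67, -0.65 and -0.53 (edgeR adjusted p = 0.115, 0.112 and 0.175). Without day 5 they were -0.6, -0.59 and -0.56 (edgeR adjusted p = 0.156, 0.155 and 0.18), and no member was called in either fit. Sdhaf2 overlaps Cpsf7 on the other strand, and strand-specific counting is not stated.

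Of the other subunit c genes, Atp5g2 and Atp5g3 showed edgeR log2 fold changes of -0.11 (SE 0.22, adjusted p = 0.743) and -0.07 (SE 0.22, adjusted p = 0.832). The largest fitted difference was that of Cox6b2, at 24, 25.8, 21.8 and 15.6 CPM in OSK and 5.99, 7.11, 10.2 and 17.9 CPM in GFP. OSK was higher on days 1, 3 and 5 and lower on day 7. The test did not call it (edgeR log2 fold change 1.2, SE 0.41, adjusted p = 0.0756). Its paralog Cox6b1 was at 109 to 142 CPM in OSK and 141 to 158 CPM in GFP (edgeR adjusted p = 0.197). The 7 core subunits of complex I had log2 fold changes of -0.43 to 0.19, and none passed.

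By single day the medians of the members, OSK over GFP, were -0.39, -0.29, -0.16 and 0.11 on the log2 scale on days 1, 3, 5 and 7. On day 7, 51 of 86 members were above 0. The assembly factors of complex I had medians of -0.37, 0.35, 0.12 and 0.74, the highest of the groups on day 7, where the core subunits had -0.02. These medians come from 1 library per arm and day and carry no test. On the same days GC-poor genes deviated by -0.41, 0.16, 0.49 and 0.6 on the log2 scale in OSK. In GFP they deviated by -1.04, -0.11, 0.25 and 0.38. The part of GC content in the medians was not tested.

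Changes within an arm were fitted as a line over days. With all days, 4 of 87 members rose and 22 fell in OSK, against 21.5% and 24% of all 13848 genes. Those falls rest on OSK day 0: without that library 0 members fell and 5 rose, against 11.5% and 9.72% of 13674 genes. The slopes of Ndufa7, Uqcrc1 (a core subunit of complex III), Atp5d (a subunit of the ATP synthase stalk) and Cox4i1 were -0.31, -0.3, -0.26 and -0.25 log2 per day with it. With OSK day 0 kept, 1 member fell without OSK day 5, 40 without OSK day 1 and 39 without OSK day 7, and 1 rose without OSK day 7. Beside the count of 0 falling members without OSK day 0, DESeq2 called 1, and 1 had a negative slope at an unadjusted p under 0.05 in edgeR.

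The 5 genes that rose over days 1 to 7 of OSK are Ndufaf4, 2 small subunits of complex IV (Cox6c and Cox7b), the accessory subunit Ndufa1 and the low-level isoform Cox7a1. Ndufaf4 was at 10.1, 12.8, 25.4 and 34.1 CPM on days 1, 3, 5 and 7. It was higher on each day than on the one before, with an edgeR slope of 0.31 log2 per day (SE 0.08, adjusted p = 0.0262). In GFP it was at 10.6, 7.71, 18.2 and 20.3 CPM, and its slope was not called there. The difference of the slopes was not tested. Cox6c was at 51.2, 60.6, 80 and 106 CPM in OSK (edgeR slope 0.17, SE 0.04, adjusted p = 0.0191). Cox7b was at 38.1, 36.4, 57.5 and 69 CPM (edgeR slope 0.15, SE 0.04, adjusted p = 0.0349) and Ndufa1 at 14, 18.3, 24.3 and 31.5 CPM (edgeR slope 0.19, SE 0.05, adjusted p = 0.0164). All 3 were also higher on day 7 than on day 1 of GFP. On days 1, 3, 5 and 7 of GFP, Cox6c was at 64.2, 77.1, 87.3 and 88.5 CPM. Cox7b was at 47.8, 58.3, 86.3 and 76.3 CPM there, and Ndufa1 at 15.8, 23.7, 27.1 and 27.6 CPM. Their GFP slopes were not called, and the differences of the slopes between the arms were not tested.

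The GC trend moved with these slopes. The deviation of GC-poor genes was -0.41, 0.16, 0.49 and 0.6 on the log2 scale on days 1, 3, 5 and 7 of OSK. With the GC trend removed the slopes of Ndufaf4 and Cox7b were 0.06 and 0.01 (edgeR adjusted p = 0.606 and 0.939), while 10 members in all were then called rising. Without OSK day 1, or without OSK day 7, none of the 5 was called. Without OSK day 3, 3 members were called.

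Cox7a1 was at 0.448, 0.734, 1.65 and 4.45 CPM on days 1, 3, 5 and 7 of OSK (edgeR slope 0.56, SE 0.11, adjusted p = 0.00764). In GFP it was at 0.637, 1.3, 1.49 and 2.73 CPM. These are low levels: 3 counts correspond to 0.144 to 0.399 CPM. The muscle markers Myod1, Myog, Myh3, Actc1, Ckm and Tnnc1 summed to 1.23, 2.73, 1.82 and 3.85 CPM in OSK on those days, with Myod1 at 0 in 19 of the 20 libraries and at 0.0602 CPM on OSK day 7. The sum was 20.7 CPM on OvSvK day 4, where Cox7a1 stood at 1.49 CPM.

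GFP showed 1 rising and 0 falling members of 87, against 2.07% and 2.73% of all genes. By DESeq2, 4 fell, and at an unadjusted p under 0.05 in edgeR, 8 had a negative slope. The edgeR count of falling members was 2 without OSK day 7 and 1 without GFP day 3. The rising gene was Cox6b2 (edgeR slope 0.27, SE 0.06, adjusted p = 0.0366). The call was lost when GFP days 1, 5 or 7, OSK day 5 or OvSvK days 2, 3 or 4 were left out. With OSK day 0 left out of the shared fit, 1 member rose and 7 fell in GFP, against 9.45% and 9.9% of all genes. The 7 include Uqcrc2 and Uqcrc1 of complex III, Cox5a, and Atp5b, Atp5a1 and Atp5g3 of complex V. Atp5b was at 2540, 1430, 1340 and 1200 CPM on days 1, 3, 5 and 7 (edgeR slope -0.16, SE 0.04, adjusted p = 0.0327). GFP day 1 is the high library. None of the 7 was called without GFP day 1 or without GFP day 7, 1 was called without GFP day 5 or without OvSvK day 3, and 13, 11 and 12 members fell without GFP day 3, OSK day 1 and OvSvK day 0. Without OvSvK day 0, 5 members rose, and without GFP day 3, 2 did.

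OvSvK per day gave 0 rising and 0 falling members of 87 by edgeR, against 4.49% and 5.81% of all genes. At an unadjusted p under 0.05, 1 had a positive and 4 a negative slope, and DESeq2 called 0 rising and 2 falling. Without OSK day 3, 1 fell. Without OSK day 0 in the shared fit, 0 members rose and 6 fell, against 8.02% and 11.4%. The 6 are the accessory subunits Ndufb6, Ndufs5 and Ndufa3, the membrane anchor Sdhc of complex II, and Cox6a1 and Ndufa4 of complex IV. Ndufb6 was at 127, 68.2, 51.4, 44 and 42.4 CPM on days 0 to 4 (edgeR slope -0.37, SE 0.08, adjusted p = 0.0117). Sdhc was at 135, 76.3, 67.9, 57.1 and 55.2 CPM (edgeR slope -0.29, SE 0.07, adjusted p = 0.0187). For both the largest step lies between days 0 and 1. Without OvSvK day 0 the slopes were -0.2 and -0.14 (edgeR adjusted p = 0.267 and 0.389) and 1 member was called. The count was 1 without OvSvK day 3, 2 without OvSvK day 4, 11 without OvSvK day 1, and 3 without OvSvK day 2, OSK day 5 or GFP day 7. Ndufa4, a subunit now placed in complex IV, was at 158, 183, 152, 93.4 and 83.4 CPM (edgeR slope -0.27, SE 0.07, adjusted p = 0.0194), and its call was lost without OvSvK day 3 or day 4. Fibroblast markers summed to 18200, 10100, 5900, 4330 and 3240 CPM on the same days, and their part was not tested.

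**Figure D3:**
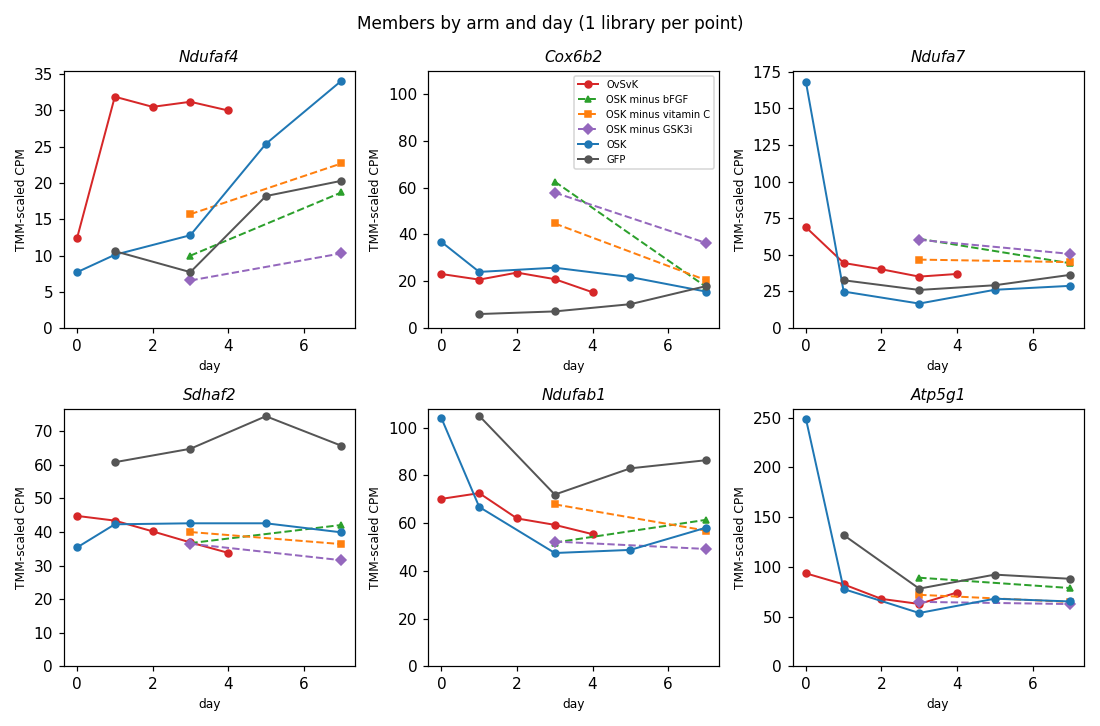
Line plots of 6 members by arm: day on the x axis, TMM-scaled CPM on the y axis, 1 library per point. Ndufaf4 is near 30 CPM in OvSvK from day 1, Cox6b2 is highest in the omissions on day 3, Ndufa7 is above OSK days 1 to 7 in OvSvK and the omissions, and Sdhaf2 is highest in GFP.

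OvSvK against OSK on days 0, 1 and 3 gave no calls at all: 0% of 12910 genes were called higher and 0% lower by edgeR, and 0 of 86 members in either direction. At an unadjusted p under 0.05, 1 member was higher and 6 were lower, and DESeq2 called 1 and 1. The gene with the unadjusted positive difference was Ndufaf4, at 12.4, 31.9 and 31.2 CPM in OvSvK, against 7.7, 10.1 and 12.8 CPM in OSK (edgeR log2 fold change 1.24, SE 0.37, adjusted p = 0.111). OvSvK was higher on each of the 3 days. On days 1 and 3 alone, without day 0, edgeR called 6.18% of 13259 genes higher and 3.34% lower, and of 86 members it called Ndufaf4 higher (log2 fold change 1.48, SE 0.32, adjusted p = 0.0323) and 0 lower. At an unadjusted p under 0.05 that fit had 7 members higher and 6 lower. On those days OvSvK and OSK belong to different library sets. GC-poor genes deviated by 0.5 and 0.45 on the log2 scale in OvSvK on days 1 and 3, against -0.41 and 0.16 in OSK. Ndufaf4 has a GC content of 40.2%. Days 1 and 3 alone were not fitted with the GC trend removed, so the part of GC content in its difference was not tested. The day 1 and day 3 medians of the members, OvSvK over OSK, were 0 and -0.03, against -0.98 on day 0.

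Between OvSvK and GFP only days 1 and 3 match, and single libraries were set side by side with no test. On day 1, 9 of 86 members were more than 1.5-fold higher and 34 more than 1.5-fold lower in OvSvK, against 33% and 31.3% of all 11168 genes. On day 3, 6 of 85 were higher and 18 lower, against 31.8% and 28.2% of 11647 genes. Core subunits of complex I had the lowest group median on day 1 (-0.85), followed by complex II (-0.75) and complex V (-0.64). On day 3 complex II and complex V were lowest, at -0.49 and -0.47. These libraries belong to different sets, and GC-poor genes deviated by -1.04 on the log2 scale in GFP day 1.

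Few members differed between OSK grown without a medium component and OSK. The 3 omissions are set against the same OSK libraries of days 3 and 7. Fibroblast markers summed to 17700 and 9030 CPM without bFGF, 9140 and 3750 CPM without vitamin C, and 8590 and 6280 CPM without GSK3 inhibitors, against 9210 and 2580 CPM in OSK, and their part was not tested. The omission libraries and these OSK libraries belong to different sets, so an omission cannot be told apart from the set. Without bFGF, 3 of 87 were higher and 0 lower than in OSK on days 3 and 7, against 4.71% and 7.77% of 14191 genes (edgeR). At an unadjusted p under 0.05, 13 were higher and 2 lower, and DESeq2 called 5 and 1. Ndufa7 was at 60.9 and 44.2 CPM without bFGF on days 3 and 7, against 16.7 and 28.8 CPM in OSK (edgeR log2 fold change 1.2, SE 0.28, adjusted p = 0.0245). Cox4i1 was at 362 and 261 CPM without bFGF, against 158 and 197 CPM in OSK (edgeR log2 fold change 0.81, SE 0.24, adjusted p = 0.0499), and Cox5b at 104 and 96.2 CPM, against 56.6 and 68.3 CPM (edgeR log2 fold change 0.68, SE 0.20, adjusted p = 0.0496). All 3 genes were higher on both days. The medians of the members over OSK were 0.51 on day 3 and -0.16 on day 7 without bFGF, 0.32 and -0.32 without vitamin C, and 0.28 and -0.26 without GSK3 inhibitors. All 3 were above 0 on day 3 and below 0 on day 7, against the same OSK libraries.

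Without vitamin C, 0 members were called higher and 0 lower, against 0.0423% and 0.254% of all genes by edgeR. At an unadjusted p under 0.05 there were 3 and 3, and DESeq2 called 0 and 0. Without GSK3 inhibitors, 2 members were higher and 3 lower, against 9.97% and 13.3% of all genes. Ndufaf4 was at 6.56 and 10.3 CPM without the inhibitors, against 12.8 and 34.1 CPM in OSK (edgeR log2 fold change -1.37, SE 0.27, adjusted p = 0.00773). Ndufs1 was at 92.9 and 80.4 CPM, against 141 and 147 CPM in OSK (edgeR log2 fold change -0.72, SE 0.21, adjusted p = 0.0319). Atp5f1, a subunit of the peripheral stalk of ATP synthase, was at 161 and 133 CPM, against 200 and 285 CPM in OSK (edgeR log2 fold change -0.70, SE 0.23, adjusted p = 0.0494). All 3 were lower on both days.

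Cox6b2 was higher without GSK3 inhibitors, at 57.9 and 36.4 CPM, against 25.8 and 15.6 CPM in OSK (edgeR log2 fold change 1.21, SE 0.29, adjusted p = 0.017). On day 3 it was also at 62.6 CPM without bFGF and 44.7 CPM without vitamin C, the other high libraries. Ndufa7 was at 60.2 and 50.6 CPM without the inhibitors (edgeR log2 fold change 1.28, SE 0.28, adjusted p = 0.0122). Ndufa7 moved with the library sets: it was at 35.1 to 168 CPM in the 12 libraries of OvSvK, the omissions and OSK day 0, and at 16.7 to 36.3 CPM in the 8 of OSK days 1 to 7 and GFP. Across the 85 members, 3 did not overlap between the sets, against 0.603% of 10782 genes: Ndufb3 was higher in the 12 libraries, and Sdha and Atp5f1 were lower.

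The omission calls depend on single libraries. Without the bFGF-free library of day 3 or of day 7, 0 members were higher, and the count was 18 without OSK day 7. It was 1 without OSK day 3, or without any 1 of the 4 libraries lacking vitamin C or GSK3 inhibitors. Without OSK day 3, 4 members were lower without bFGF. For vitamin C, 2 were higher without OSK day 7 and 2 lower without OSK day 3. For GSK3 inhibitors 16 members were higher without OSK day 7, and 12 were lower without OSK day 3. Without the inhibitor-free day 7 library 0 were higher and 0 lower, and without that of day 3 there was 1 of each. Leaving out OSK day 3 gave 1 higher, and leaving out bFGF-free day 7 or either vitamin C-free library gave 1 lower. Without OSK day 7, or without bFGF-free day 3, 2 were lower. With the GC trend removed, Ndufaf4, Ndufs1 and Atp5f1 had log2 fold changes of -0.38, -0.26 and -0.06 without the inhibitors, with edgeR adjusted p = 0.294, 0.317 and 0.857. Ndufs1 overlaps the abundant Eef1b2, and Atp5f1 and Cox4i1 overlap Wdr77 and Emc8, each on the other strand.

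**Figure D4:**
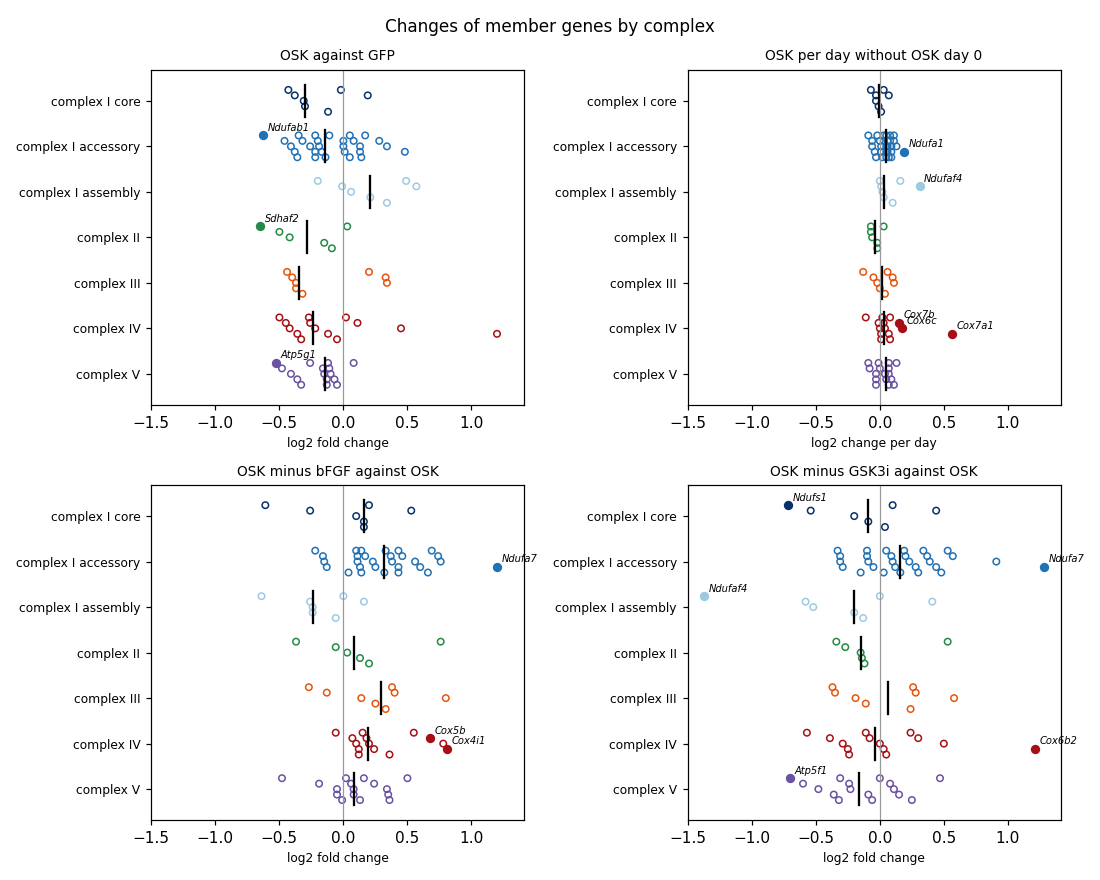
Dot plots of log2 changes of the tested members by complex in 4 comparisons: OSK against GFP, OSK per day without OSK day 0, and OSK without bFGF or without GSK3 inhibitors against OSK. The OSK per day panel shows log2 change per day and the others log2 fold change, so distances from 0 do not compare between them. Filled and named dots passed an edgeR adjusted p of 0.05, open dots did not, and black bars are group medians. Most members are open dots in each panel.

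The embryonic end points were compared in the authors' normalized table, whose whole-number scores share 1 median (374) and 1 maximum (58542) in every column. There 58 of 89 members were more than 1.5-fold higher in mESC than in MEF and 3 were lower, against 36.4% and 34.8% of 12827 genes. The median log2 ratio was 0.81 over the members and 0.05 over all genes. In complex IV, 14 of 15 genes were higher and 1 was lower, with a group median of 1.3, while complex II had 1 higher and 1 lower and a median of 0.25. With 1 library each there is no test. Set against MEF, GFP had median log2 ratios over the members of 0.83, 0.53, 0.68 and 0.62 on days 1, 3, 5 and 7. The other transfected libraries also lay above MEF, from 0.24 on day 3 of OSK and OvSvK to 1.36 on OSK day 0. A median above MEF was thus not particular to mESC. mESC and MEF were quantified with another RSEM version and genome build than the transfected libraries.

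Atp5b scored 58542 in mESC, the ceiling of the table, and 13608 in MEF. Cox7c, a small subunit of complex IV, scored 1810 in mESC and 318 in MEF. Cox7a1 scored 355 in mESC and is listed at 0 in MEF, and the testis isoforms Cox7b2 and Cox6b2 scored 176 and 575 in mESC, against 16 and 103 in MEF. In the opposite direction, Sdhaf2 scored 210 in mESC and 458 in MEF. Cox7a2l, a factor of respiratory supercomplexes, scored 1134 in mESC and 1766 in MEF, and Ndufaf1, an assembly factor of complex I, scored 88 and 136.

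**Figure D5:**
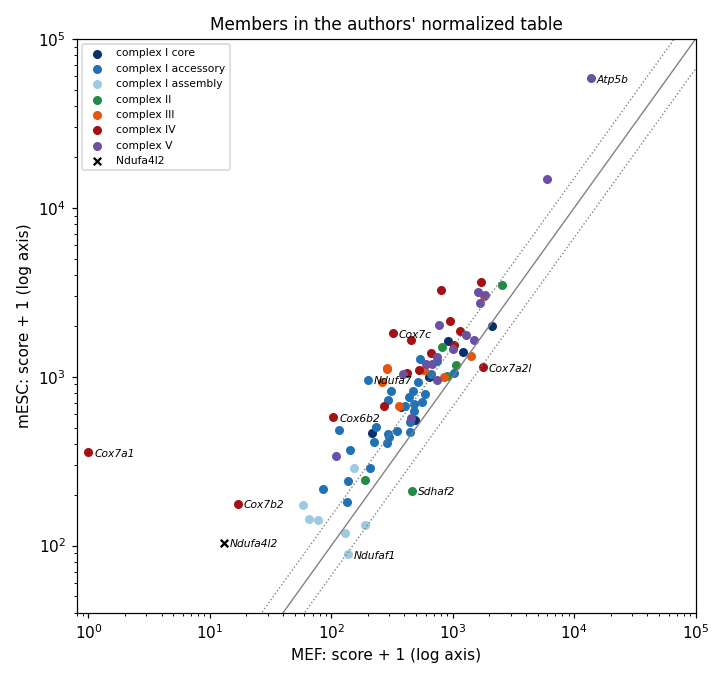
Scatter plot of the members' scores plus 1 in the authors' normalized table, MEF on the x axis and mESC on the y axis, both on log axes, 1 point per gene and coloured by complex. The solid line is equality and the dotted lines are 1.5-fold, with 58 points above the upper and 3 below the lower dotted line.

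The other libraries were set beside mESC in the same table, although their RSEM version and genome build differ from those of mESC. The median log2 ratio of the members to mESC was 0 in OvSvK day 0 and -0.37 in OvSvK day 4. OSK had 0.64 on day 0, -0.22 on day 1 and 0.01 on day 7, and GFP had 0.06 on day 1 and -0.22 on day 7. It was -0.04 without bFGF on day 3. A median near that of mESC was thus also seen in control and day 0 libraries. Cox7a1 scored 10 on OvSvK day 4 and 52 on OSK day 7, against 46 on GFP day 7 and 355 in mESC. Cox7b2 scored 5, 4 and 6 on OvSvK day 4, OSK day 7 and GFP day 7. Its counts were at 0 in 19 of the 20 libraries.

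Among the isoform genes, the common forms stood higher per transcript length. Cox6b1 had a median of 699 TPM over the 20 libraries and Cox6b2 106 TPM. Cox7a2 had 189 TPM and Cox7a1 11 TPM, and Ndufa4 had 641 TPM and Ndufa4l2 0.315 TPM. Of the subunit c genes, Atp5g3 had 809 TPM, Atp5g2 343 TPM and Atp5g1 286 TPM. Cox8a stood at 89.4 to 333 CPM, while its paralog Cox8b, named in the reference annotation only, did not exceed 0.105 CPM and Cox8c 0.071 CPM. Cox6a2 reached at most 0.249 CPM, and Cox4i2 reached 2.39 CPM on day 0 of OvSvK and 2.91 CPM on day 0 of OSK.

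Other genes of the pathway were counted from lists. Of 30 further respiratory chain genes tested in OSK against GFP, 1 was higher and 3 lower (median log2 fold change 0.02). Over all genes 16.8% were higher and 14% lower. Acad9, a complex I assembly factor, was at 285, 173, 170 and 154 CPM in OSK, against 86.4, 65.6, 60.6 and 55.4 CPM in GFP (edgeR log2 fold change 1.54, SE 0.14, adjusted p = 0.00228). Sco2 and Surf1, which help assemble complex IV, were lower (edgeR log2 fold changes -1.04 and -0.62, adjusted p = 0.0189 and 0.0344). Tmem70, an ATP synthase assembly factor, was lower too (edgeR log2 fold change -0.66, adjusted p = 0.0391).

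Of 14 regulators of mitochondrial gene expression, 0 were higher and 1 lower in OSK than in GFP, against 16.8% and 14% of all genes. Ppargc1a, the coactivator PGC-1alpha, was at 0.224, 3.15, 4.29 and 3.73 CPM in OSK, against 1.53, 7.71, 11.2 and 21.7 CPM in GFP (edgeR log2 fold change -1.85, SE 0.35, adjusted p = 0.0151). Its value on OSK day 1 lies under 0.336 CPM, the level of 3 counts in that library. Tfam, which packages mitochondrial DNA, and Gabpa, an ETS factor whose gene overlaps Atp5j, were lower without GSK3 inhibitors (edgeR log2 fold changes -0.94 and -0.90, adjusted p = 0.0241 and 0.0181). Both were lower without bFGF as well (edgeR -0.92 and -0.86, adjusted p = 0.0378 and 0.0314). These omissions share their OSK libraries, which belong to the other library set. GC-poor genes deviated by 0.16 and 0.6 on the log2 scale in OSK on days 3 and 7. They deviated by -0.47 and 0.1 without bFGF and by -0.4 and -0.24 without the inhibitors. The part of the set in the values of Tfam and Gabpa was not tested. Their values with the GC trend removed are not given here.

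Of 19 genes of pyruvate entry and the citric acid cycle, 1 was higher and 1 lower in OSK than in GFP, against 16.8% and 14% of all genes. Pdha1, a subunit of pyruvate dehydrogenase, was higher (edgeR log2 fold change 1.16, SE 0.20, adjusted p = 0.0115), and Suclg2, a subunit of succinyl-CoA ligase, was lower (edgeR log2 fold change -1.10, SE 0.17, adjusted p = 0.00835). Of 17 glycolysis genes 3 were higher and 0 lower, and the share higher is near that of all genes (16.8%). The 3 were Pdk1, a kinase that inhibits pyruvate dehydrogenase, Hk2 and Pfkp, with edgeR log2 fold changes of 1.35, 1.19 and 1.19 (adjusted p = 0.00523, 0.00623 and 0.0118). Without GSK3 inhibitors 0 of 17 were higher and 5 lower (median log2 fold change -0.42), against 9.97% and 13.3% of all genes. Among the 5 was Eno1 at 572 and 575 CPM, against 950 and 1550 CPM in OSK (edgeR log2 fold change -1.07, SE 0.24, adjusted p = 0.0126). These libraries and those of OSK belong to different sets, and the part of the set was not tested. GC-poor genes deviated by -0.4 and -0.24 on the log2 scale without the inhibitors on days 3 and 7, against 0.16 and 0.6 in OSK. None of the 13 subunits encoded in mitochondrial DNA was matched in the tables, so their RNA was not analysed here.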

How the data were processed

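RNA was measured in 20 libraries of transfected fibroblasts, plus mESC and MEF in the table of the whole series. Per the submitters' processing notes, the authors quantified the 20 libraries with RSEM 1.2.4 (mm10), while the reanalysed mESC and MEF had RSEM 1.1.21 (mm9). Per the file headers, the authors deposited expected counts and TPM for each library. RSEM shares ambiguous reads among genes, so members with near-identical copies are uncertain, and 27 of 89 members overlap another gene of the tables. The values of the deposited series table are a normalized score: its 22 columns share 1 median. It gave symbols to 12897 identifiers, and GENCODE M21 gave 10788 more.

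Expected counts were rounded and tested with edgeR 4.0.16 (R 4.3.3; TMM, filterByExpr by arm, robust quasi-likelihood) and a threshold of 0.05 on Benjamini-Hochberg adjusted p over all genes. OSK against GFP and OvSvK against OSK had day as a block, slopes came from 1 model of 14 libraries, and omissions from 1 model of 8. The models were tested on simulated data. Alternatives were RLE scaling, DESeq2 1.42.0, no filter, log2(TPM + 1) with limma 3.58.1, removal of a GC trend and leaving out libraries. Slopes without OSK day 0 were added after seeing the data. Single libraries were compared at 1.5-fold with a prior count of 2 and at least 5 CPM, and scores at 1.5-fold with a pseudocount of 1. Tables and plots used python 3.11.15, numpy 2.4.6, pandas 2.3.3 and matplotlib 3.10.9. Totals of 7872277 to 20720718 counts put 3 counts at 0.144 to 0.399 CPM, which covers counting error only. GC content is that of the gene's transcripts in the reference.

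Named genes are, per comparison and group of members, up to 2 called members in each direction with a mean of at least 5 CPM and the largest change, the isoform genes, the core subunits of complex I, and up to 3 called genes of each other list. Others, such as Cox7c, Ndufc2, Ndufb3 and called members of a group beyond these, were chosen after their values were seen. The members and lists were chosen with earlier results of these data known.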

Additional observations from a re-analysis of the deposited data

How the results depend on the processing

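Of the results for single genes under all alternatives, 493 kept their direction and side of the threshold, 195 lost the call and 13 changed sign. Replicate numbers pair no libraries, since each arm and day is 1 library, and arms were matched by day: OSK against GFP and OvSvK against OSK were fitted with day as a block. Dropping day 3 or day 7 whole from the omission model left no residual degrees of freedom, so these 2 alternatives were not run. At these depths 3 counts are 0.144 to 0.399 CPM, which bears on Cox7a1, Cox7b2 and, on OSK day 1, Ppargc1a. Counts below are members called. The cause of a change was not tested except where a library was left out.

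In OSK against GFP, 0 members were higher (0 to 2 leaving out 1 day, 1 with DESeq2, 5 with TPM and limma) and 3 lower (0 to 6 leaving out 1 day, 9 with DESeq2, 6 with the GC trend removed, 6 with RLE, 1 with TPM). In OvSvK against OSK, 0 were higher (0 to 1, DESeq2 1) and 0 lower (0 to 0, DESeq2 1). For OvSvK per day, 0 rose (0 to 0, TPM 1) and 0 fell (0 to 6, DESeq2 2, 8 without OSK day 0 and GFP day 1). For OSK per day, 4 rose (1 to 5, GC trend removed 1, TPM 11) and 22 fell (0 to 40, TPM 1, 0 without OSK day 0 and GFP day 1). For GFP per day, 1 rose (0 to 1, 0 with no filter, 0 without OSK day 0 and GFP day 1) and 0 fell (0 to 7, DESeq2 4).

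Without OSK day 0, OvSvK per day had 0 rising (0 to 0, GC trend removed 1, TPM 2) and 6 falling (1 to 11, DESeq2 13, TPM 1). OSK per day had 5 rising (0 to 6, DESeq2 8, GC trend removed 10, TPM 12) and 0 falling (0 to 0, DESeq2 1). GFP per day had 1 rising (0 to 5, DESeq2 3, GC trend removed 3, TPM 7) and 7 falling (0 to 13, DESeq2 13).

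Without bFGF, 3 were higher (0 to 18, DESeq2 5, GC trend removed 1, RLE 1, TPM 6, no filter 5) and 0 lower (0 to 4, DESeq2 1). Without vitamin C, 0 were higher (0 to 2) and 0 lower (0 to 2). Without GSK3 inhibitors, 2 were higher (0 to 16, GC trend removed 1, TPM 6) and 3 lower (0 to 12, GC trend removed 1). At 2-fold in place of 1.5-fold, 4 members were higher and 10 lower in OvSvK than in GFP on day 1, 2 were lower on day 3, and 32 were higher and 1 lower in mESC than in MEF.

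Slopes of OSK per day that changed sign without OSK day 0, with or without GFP day 1, were those of Ndufs7 (0.01), Ndufa7 (0.05), Cox4i1 (0.00), Cox6a1 (0.02) and Atp5d (0.00). Leaving out 1 library, they ran from -0.34 to 0.01 for Ndufs7, -0.49 to 0.05 for Ndufa7, -0.38 to 0.00 for Cox4i1, -0.38 to 0.02 for Cox6a1 and -0.42 to 0.00 for Atp5d, with the lowest value without OSK day 7. With the GC trend removed they were those of Ndufaf4 (-0.07), Uqcrb (-0.19) and Atp5f1 (-0.15).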
